A study of Homo sapiens with 6 samples.

Results

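The SOX and T-box genes encode 2 families of transcription factors that direct cell identity in the embryo. The 34 autosomal genes of these families were taken by name, 18 SOX genes and 16 T-box genes, and every measured region that overlapped a gene's span on hg38, or lay within 10 kb of it, was counted for that gene. These regions numbered 172 of the 35130 in the authors' deposited table, and they held 1545 counted sites. The table had a region for 32 of the 34 genes and none for TBX19, a regulator of pituitary corticotrophs, or TBX21 (T-bet), a regulator of type 1 helper T cells.

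The cells were M07e, an established human line from acute megakaryoblastic leukemia, a cancer of the platelet-forming lineage. All 6 libraries came from cells grown in medium with 20% fetal bovine serum and 10 ng/mL of the cytokine GM-CSF. 3 libraries were controls labelled WT, and 3 came from M07e cells with a CRISPR knockout of DNMT3B, an enzyme that places methyl groups on unmethylated CpG dinucleotides. The labels do not state whether replicates were separate cultures or whether the knockout line was 1 clone. DNA was cut with MspI, an enzyme that cuts at CCGG, and treated with bisulfite, which changes unmethylated cytosine and leaves methylated cytosine, so that sequencing reads the share of methylated molecules mostly in CpG-rich DNA.

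The deposited table has 1 mean methylation level (percent) per group and region. It names its columns M07e_WT and M07e_3883. No label uses the second name. It was read as the DNMT3B knockout because that was the only other genotype of the study, and each direction below rests on that reading. With 1 mean per group there is no replicate error and no test between libraries. A difference is the M07e_3883 mean minus the M07e_WT mean in percentage points, and the word called is used for regions that passed 2 thresholds, an authors' q below 0.01 and a difference of 25 points or more in either direction. How that q was derived is not stated, so it is not read here as a measure of the spread between libraries, and the depth behind the levels is unknown. Over the member regions q rose with the deposited 2-dimensional Kolmogorov-Smirnov p. The calls therefore follow that p-value and not the deposited Mann-Whitney p-value.

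SOX proteins bind DNA through a high-mobility-group (HMG) box that bends the helix, usually beside a partner factor. T-box proteins bind through the domain for which they are named. Both families are divided into subfamilies of genes that share sequence and often act in the same tissues. Many members have CpG-dense starts and are silent outside the tissue they specify, and they are known as frequent places of methylation change in cancers. In blood, SOX17 is known for its part in fetal blood stem cells and SOX4 for its part in lymphoid progenitors, while T-bet and EOMES act in cytotoxic lymphocytes.

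RefSeq start-site sequences (GRCh38.p14) were matched for 22 of the 34 genes, as 31 windows of 300 bases. The 250 bases before the start are printed for SOX1 and TBX20 because they show how the measured regions lie beside these starts. In SOX1, the capitals mark each C and G of a CG inside a measured region of 13 sites, which fills bases 35 to 199 of the printed sequence and where 44 C and G could have been counted over both strands. In TBX20, the capitals mark all 31 CG dinucleotides, and a called region begins 22 bases beyond the 5′ end of the print. SOX1 is given as chr13:112066899-112067148, plus strand, and TBX20 as chr7:35254101-35254350, minus strand, both 5′ to 3′.
SOX1: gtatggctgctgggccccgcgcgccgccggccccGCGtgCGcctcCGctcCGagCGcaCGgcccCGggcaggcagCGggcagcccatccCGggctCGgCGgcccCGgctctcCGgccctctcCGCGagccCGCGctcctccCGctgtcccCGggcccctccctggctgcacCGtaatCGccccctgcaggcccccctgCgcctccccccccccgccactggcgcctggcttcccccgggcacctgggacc
TBX20: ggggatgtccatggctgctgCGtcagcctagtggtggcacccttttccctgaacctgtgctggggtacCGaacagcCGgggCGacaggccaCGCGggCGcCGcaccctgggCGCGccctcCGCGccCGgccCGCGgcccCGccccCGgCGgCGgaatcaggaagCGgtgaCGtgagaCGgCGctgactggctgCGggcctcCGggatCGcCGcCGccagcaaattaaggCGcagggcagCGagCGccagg
The SOX1 stretch holds 31 CG and 7 CCGG sites, and the TBX20 stretch holds 31 CG and 4 CCGG sites. Over all 31 member windows the median was 21 CG per window, beside 14 over all 35116 RefSeq windows. The MspI site CCGG was present in 24 of the 31 member windows, from 20 genes, beside 63.1% of all windows. The SOX core letters ACAAT, searched on both strands, were present in 9 member windows, from SOX5, SOX6, SOX30, TBR1 and TBXT, beside 27.4% of all windows. The T-box binding letters AGGTGTGA, searched on both strands, was in none of the 31 member windows and in 0.980% of all windows.

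Of the 172 SOX and T-box regions in the authors' deposited table, 15 were called, 8 of them higher and 7 lower in M07e_3883. They lay at 6 SOX genes (SOX1, SOX7, SOX8, SOX14, SOX17 and SOX21) and 5 T-box genes (TBX2, TBX3, TBX4, TBX18 and TBX20). The called share was 8.72% (exact 95% binomial interval over regions 4.96 to 13.98), beside 6.74% of all 35130 regions. In the higher direction the whole table had 4.57% called, and in the lower direction 2.17%. The interval of the member share includes the share of the whole table, so the total is not a result about these genes. When q was replaced by the Kolmogorov-Smirnov p after Benjamini-Hochberg adjustment over the whole table, 8 of the 15 calls remained: those at SOX7, SOX14, TBX2, TBX3, TBX4 and TBX18 and the SOX17 regions of 13 and 10 sites. Because q rose with that p over the member regions, this was a stricter cutoff on the same statistic and not a separate check. The intervals given here treat regions as independent, although neighbouring regions share a locus and all share the same libraries.

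Of the 32 measured genes, 11 (34.4%, exact interval 18.6 to 53.2) had at least 1 called region, beside 17.5% of the 13108 autosomal protein-coding genes with a region. The SOX and T-box genes had more regions each, a median of 5 beside 2 per protein-coding gene. Among genes with 1 to 4 regions, 0 of 13 members had a called region, beside 11.6% of 10722 protein-coding genes. With 5 to 9 regions the count was 9 of 15, beside 38.3% of 1873, and with 10 to 12 regions it was 2 of 4, beside 63.5% of 260. These shares by number of regions were not tested against each other.

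**Figure D1:**
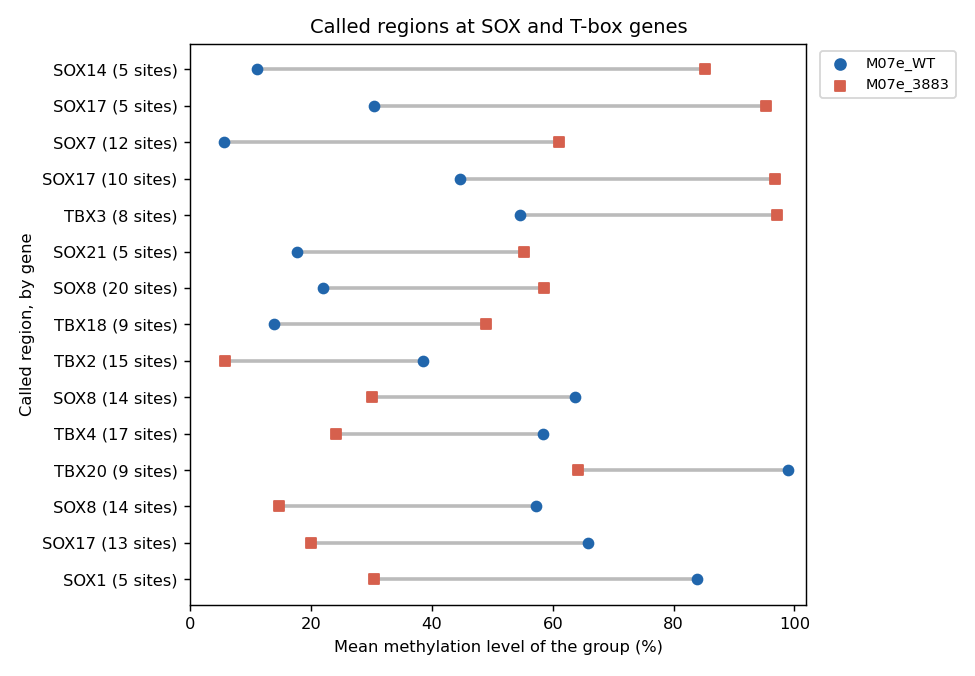
Mean methylation level (percent, horizontal axis) of the 15 called regions at SOX and T-box genes, with M07e_WT as circles and M07e_3883 as squares. The 7 lower regions stand at the bottom and the 8 higher ones at the top, led by SOX14 at 11.1% and 85.3%.

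The SOXB genes act in neural tissue. SOX1 and SOX2, of the SOXB1 group, maintain neural progenitors, and SOX14 and SOX21, of the SOXB2 group, act in neuronal differentiation. The SOXB1 genes had 1 called region of 13 and the SOXB2 genes had 2 of 12. At SOX14, the region of 5 sites at chr3:137764362-137764533, which begins 47 bases inside the gene, was at 11.1% in M07e_WT and 85.3% in M07e_3883. This difference of 74.2 points (authors' q = 0.00157) was the highest of all 172 regions. At SOX21, the region of 5 sites at chr13:94711712-94711732, 813 bases after the RefSeq start, was at 17.7% and 55.3% (37.6 points, authors' q = 0.00314 in the deposited table). Both SOXB2 calls were thus higher in M07e_3883. Each held only 5 sites, and the SOX21 call was lost when either deposited p-value, after Benjamini-Hochberg adjustment, replaced q.

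The SOXB1 call went the other way. At SOX1, the region of 5 sites at chr13:112068913-112068935, 1764 bases after the start, was at 83.9% in M07e_WT and 30.5% in M07e_3883. Its difference of -53.5 points (authors' q = 0.00649) was the lowest of the 172. The same bases lie in the noncoding gene SOX1-OT. Levels along the 11 SOX1 regions went in both directions, 6 higher and 5 lower. The region marked in the printed SOX1 sequence was at 32.4% and 0%, with an authors' q of 1 in the deposited table. A further SOX1 region, 5437 bases upstream, was at 30.7% and 6.77% with an authors' q of 0.00830, but its difference of -23.9 points was just under the threshold.

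The SOXE genes SOX8, SOX9 and SOX10 act in the neural crest and its glia, and SOX8 and SOX9 also in the testis. All 3 calls among their 21 regions were at SOX8. Inside SOX8, 14 sites at chr16:982386-982436 were at 57.3% in M07e_WT and 14.6% in M07e_3883 (-42.7 points, authors' q = 0.00219). Another 14 sites at chr16:977579-977655, 4115 bases outside SOX8 and within the spans of LMF1 and CEROX1, were at 63.6% and 30.1% (-33.5 points, authors' q = 0.00967). On the far side, 4046 bases outside the gene, 20 sites at chr16:991025-991295 were at 22.0% and 58.5% (36.5 points, authors' q = 0.00708 in the authors' deposited table). SOX8 thus had calls in both directions within the same window.

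SOX9 and SOX10 had no call. At SOX10, the region with the lowest authors' q held 20 sites at chr22:37983657-37983703, inside the gene and also within the span of POLR2F. It was at 65.7% in M07e_WT and 32.9% in M07e_3883 (-32.8 points, q = 0.0308 in the authors' deposited table). At SOX9 it held 9 sites, at 52.2% and 25.2% (authors' q = 0.103). A SOX9 region of 10 sites at 0% and 57.7% had an authors' q of 1, although its deposited Mann-Whitney p was 9.2e-06.

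The SOXF genes SOX7, SOX17 and SOX18 act in blood vessel endothelium, and SOX17 also in endoderm. They had 4 calls among 18 regions, 3 higher and 1 lower, at SOX7 and SOX17. SOX17 carried 3 of them within its own span. Of these, 13 sites at chr8:54458156-54458204, 221 bases from the gene's low-coordinate end, were at 65.8% in M07e_WT and 20.0% in M07e_3883 (-45.8 points, authors' q = 0.000274). Another 5 sites at chr8:54458670-54458701 were at 30.5% and 95.3% (64.8 points, authors' q = 0.00639). The last, 10 sites at chr8:54459624-54459655, was at 44.6% and 96.7% (52.1 points, authors' q = 0.000145 in the deposited table). SOX17 was therefore lower near one end of its span and higher at both of the other called places.

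At SOX7, 12 sites at chr8:10730112-10730249, shared with SOX7-AS1, were at 5.56% in M07e_WT and 61.1% in M07e_3883 (55.6 points, authors' q = 5.6e-05). SOX18 had no call: its region of 8 sites inside the gene was at 16.2% and 64.4% (48.1 points), with q = 0.0245 in the authors' deposited table. Beside the called regions, a SOX17 region of 59 sites, 3689 bases outside the gene, was at 0% and 31.7% with an authors' q of 1.

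**Figure D2:**
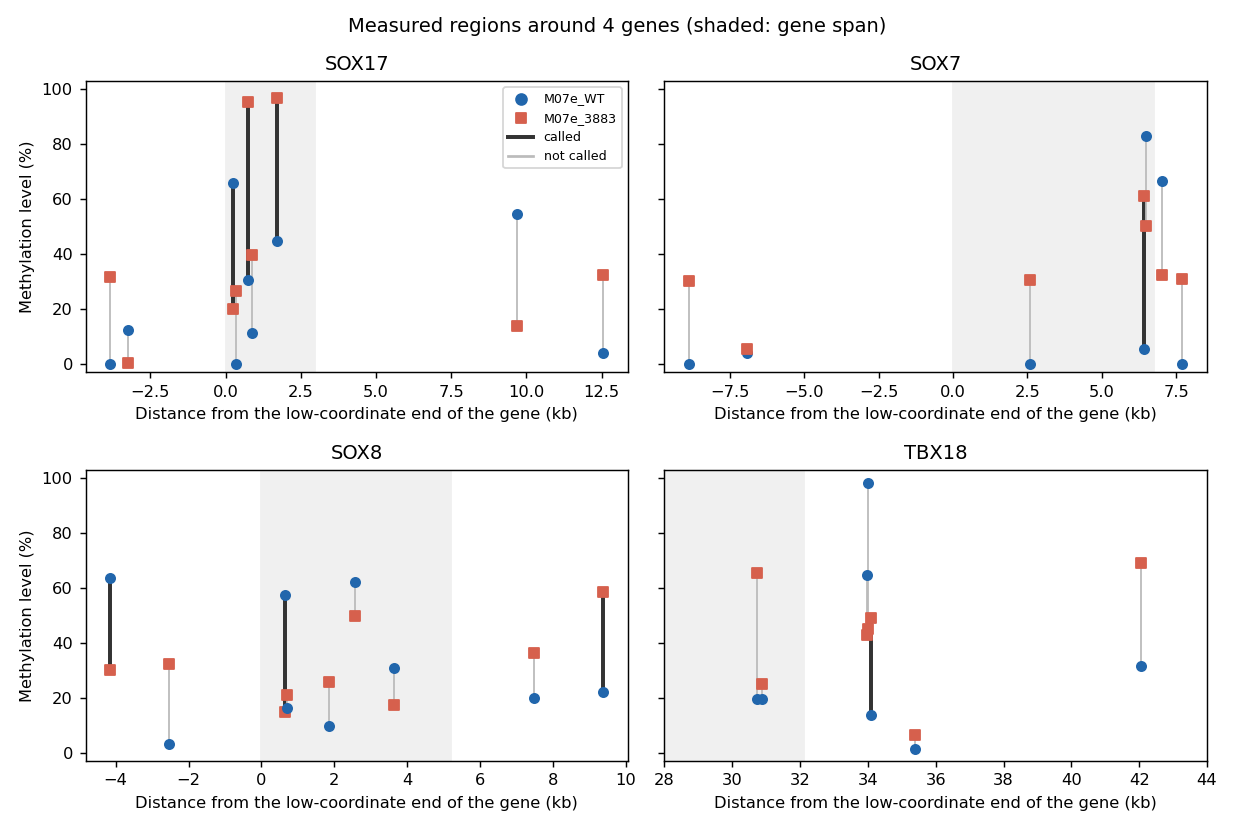
Methylation level (percent) of each measured region around SOX17, SOX7, SOX8 and TBX18, against distance in kb from the gene's low-coordinate end, with the gene span shaded and the level of M07e_WT (circles) joined to that of M07e_3883 (squares). Dark lines are called regions: SOX17 shows 1 lower and 2 higher calls inside its span, and the TBX18 panel is limited to the stretch that holds its 7 regions.

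The TBX2 subfamily holds the transcriptional repressors TBX2 and TBX3 and the limb genes TBX4 (hindlimb and lung) and TBX5 (forelimb and heart). It had 3 calls among 35 regions. At TBX2, 15 sites at chr17:61399161-61399201, 642 bases outside the gene and within TBX2-AS1, were at 38.5% in M07e_WT and 5.68% in M07e_3883 (-32.8 points, authors' q = 2.4e-05). At TBX4, 17 sites at chr17:61456553-61456610, 65 bases after a RefSeq start and also within LOC124904042, were at 58.4% and 24.2% (-34.2 points, authors' q = 0.00132). At TBX3, 8 sites at chr12:114684755-114684786, 580 bases outside the gene and within TBX3-AS1, went the other way, at 54.6% and 97.1% (42.5 points, authors' q = 0.000329 in the deposited table). TBX2 and TBX4, which lie close together on chromosome 17, were thus lower at their called regions and TBX3 was higher.

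TBX5, on the other hand, had 10 regions and no call. Its lowest authors' q belonged to 10 sites that lay 748 bases before the start, at 31.7% in M07e_WT and 1.56% in M07e_3883 (q = 0.0831 in the authors' deposited table). Its region of 41 sites was at 0% and 30.8%, with an authors' q of 1. A second TBX2 region, of 18 sites, was at 46.0% and 23.4% with an authors' q of 0.00428, and its difference of -22.6 points fell under the threshold.

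The TBX1 subfamily holds genes of the heart, pharynx and mesenchyme: TBX1 acts in the pharyngeal arches, TBX18 in the epicardium and sinus node, TBX20 in heart muscle and TBX15 in skeletal and muscle development. It had 2 calls among 35 regions. At TBX20, the 9 sites at chr7:35254373-35254394, 273 bases upstream of the start and next to the printed sequence, were at 99.0% in M07e_WT and 64.1% in M07e_3883 (-34.9 points, authors' q = 0.00343). The adjoining TBX20 region of 13 sites, 16 bases further upstream, was at 20.1% and 17.9%. At TBX18, 9 sites at chr6:84766553-84766631 lay 1955 bases upstream of the start and within LOC124901353. They were at 13.8% and 48.9% (35.1 points, authors' q = 0.00119 in the deposited table). All 8 TBX15 regions were higher in M07e_3883, by 1.55 to 34.0 points, and none was called. In 3 of the 8 the M07e_WT mean was exactly 0% and the authors' q was 1. The 12 TBX1 regions ranged from -31.3 to 31.9 points, also without a call.

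**Figure D3:**
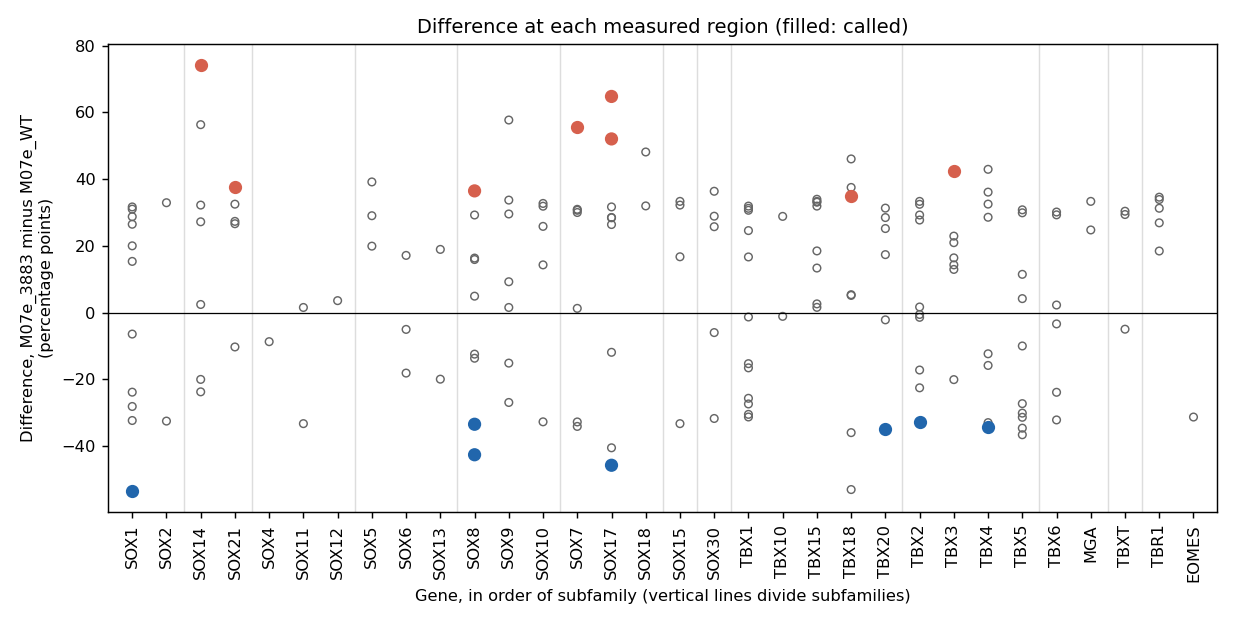
Difference in methylation level (M07e_3883 minus M07e_WT, percentage points) at each of the 172 regions, by gene in order of subfamily, with called regions as filled points. Called points run from -53.5 at SOX1 to 74.2 at SOX14, and most genes have open points on both sides of 0.

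The other subfamilies had no called region. These were SOXC (4 regions), SOXD (8), SOXG (4), SOXH (5), the TBX6 subfamily (8), the T subfamily (3) and the TBR1 subfamily (6). SOX4, a SOXC gene of progenitor cells, had an authors' q of 0.00154 in the deposited table at a region of 5 sites, but its levels of 10.3% and 1.51% differed by only -8.75 points. Its relatives SOX11 (1.36% and 2.88%) and SOX12 (0.884% and 4.45%) were low in both groups at the region of lowest authors' q. The other SOX11 region, of 9 sites inside the gene, was at 33.3% in M07e_WT and 0% in M07e_3883. In the SOXD group, which acts in cartilage and neurons, the region of lowest authors' q was at 37.8% and 17.8% for SOX13 (q = 0.0150) and at 29.9% and 58.9% for SOX5 (q = 0.105). All 3 SOX6 regions had an authors' q of 1, with differences of -18.2, -5.07 and 17.1 points. SOX30, a gene of sperm development, was at 1.19% and 37.6% over 16 sites (q = 0.0173 in the authors' deposited table). All 4 SOX15 regions had an authors' q of 1, 3 of them higher in M07e_3883 and 1 lower, from -33.3 to 33.3 points. SOX2, a pluripotency factor, was at 48.8% and 16.3% with an authors' q of 0.153.

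Among the remaining T-box genes, TBR1, a gene of cortical neurons, was higher in M07e_3883 in all 5 of its regions, by 18.4 to 34.6 points, and none was called. In 2 of the 5 the M07e_WT mean was exactly 0% and the authors' q was 1. The lowest of its values of q in the authors' deposited table was 0.0236, at 25.1% and 59.7%, in a region 1337 bases outside the gene. EOMES had 1 region, of 12 sites, at 63.9% in M07e_WT and 32.6% in M07e_3883 (authors' q = 0.194). For TBXT (brachyury, a mesoderm regulator) the region of lowest authors' q was at 11.4% and 41.8% (q = 0.475). For MGA, a repressor in the MYC network, it lay 9865 bases outside the gene, at 44.7% and 69.5% (authors' q = 0.434). For TBX10 it was at 10.3% and 39.2% (authors' q = 0.392). TBX6, a gene of paraxial mesoderm, had its lowest authors' q (0.125) at a region of 5 sites at 0.0560% and 2.30%. That region lies 9754 bases outside TBX6, within PPP4C. Inside TBX6 the lowest authors' q was 0.203, at 48.1% and 24.2%. For TBX1 the region of lowest authors' q was at 37.7% and 11.9% (q = 0.319). For TBX15 it lay 767 bases outside the gene, at 3.03% and 16.4% (authors' q = 0.203).

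By family, 10 of 85 SOX regions were called (11.8%, exact interval 5.79 to 20.6), 6 higher and 4 lower. For the T-box genes 5 of 87 were called (5.75%, exact interval 1.89 to 12.9), 2 higher and 3 lower. The intervals of the families overlap, and the difference between them was not tested. Both intervals include the 6.74% called in the whole table, so neither share is a result about a family. The subfamily counts above were not tested against that share.

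Over all 172 regions, 110 were higher in M07e_3883 and 62 lower, a share of 64.0% higher beside 68.4% of the whole table. The median difference was 16.7 points (95% order-statistic interval over regions 4.90 to 25.7), beside 17.4 over the table. The median M07e_WT level was 16.2% at these genes and 7.59% over the table, while the M07e_3883 medians were 30.7% and 30.9%. Regions at an M07e_WT level of 20 to 80% made up 41.9% of the member regions and 32.2% of the table. Both groups were under 10% in 16 member regions (9.30%), beside 17.1% of the table.

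The higher and the lower calls began from different levels. The 8 higher regions had a median of 19.8% in M07e_WT and 73.2% in M07e_3883. The 7 lower regions had a median of 63.6% in M07e_WT and 24.2% in M07e_3883. The whole table showed the same contrast, with 15.8% and 62.0% for its higher calls and 58.1% and 14.9% for its lower ones. A higher call needs room above the control level and a lower one needs room below it, so part of this contrast follows from the call rule.

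The median difference depended on regions with a particular pair of values. In 35 of the 172 regions (20.3%, exact interval 14.6 to 27.1) the M07e_WT mean was exactly 0% and the M07e_3883 mean lay between 25 and 33.3%. All 35 had an authors' q of 1 in the deposited table and none was called. Every member region with an M07e_WT mean of exactly 0% had this q, whatever its difference. It is therefore not read as evidence of no difference. The deposited Mann-Whitney p varied among the 35: 4.01e-09 at the SOX17 region of 59 sites, 6.2e-06 at the TBX5 region of 41 sites and 0.12 at an MGA region of 5 sites. Those of the 35 with the same number of sites had the same Mann-Whitney p, whatever their level. Within this pattern it therefore followed the number of sites, and it is not read as evidence of a difference at SOX17 or TBX5. The whole table had 7367 regions with this pair of values (21.0%). The mirrored pattern, with M07e_3883 at 0%, occurred in 7 member regions and 797 of the table. Without both kinds, the median difference over the remaining 130 member regions was 4.53 points, beside 4.15 for the table. The number of libraries with a value behind each mean was not tested.

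**Figure D4:**
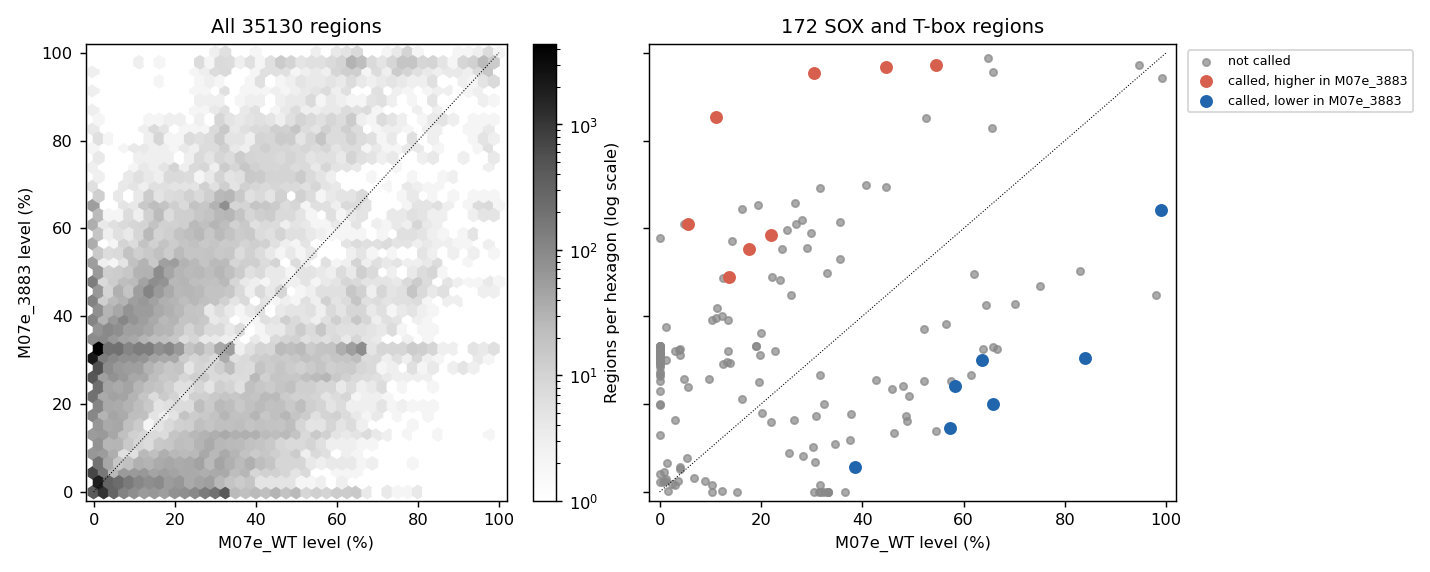
M07e_3883 level against M07e_WT level (percent) for all 35130 regions (left, shaded by the number of regions per hexagon on a log scale) and for the 172 SOX and T-box regions (right), with equality as a dotted line. A column of points at an M07e_WT level of 0% reaches 25 to 33.3% in M07e_3883 in both panels, and none of the 15 coloured called regions lies in it.

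Neighbouring regions of the same gene often had opposite differences. At SOX7, the called region at 5.56% and 61.1% abuts, with no base between, a region of 5 sites at 83.0% and 50.2% (authors' q = 0.475). At TBX18, the called region at 13.8% and 48.9% lies 38 bases from one at 98.1% and 44.9% (authors' q = 0.0430 in the deposited table). In both genes the levels of M07e_3883 in the adjoining regions were closer together than those of M07e_WT. These pairs were named as examples, and a TBX1 pair with opposite differences did the reverse. At SOX17, the called region at 65.8% and 20.0% lies 32 bases from one at 0% and 26.4% (authors' q = 1). Of 27 member pairs with a gap of at most 100 bases, 15 (55.6%) had opposite signs, beside 48.0% of the 3090 pairs of the table. Where both differences were at least 25 points, the counts were 5 of 8 for members and 282 of 442 (63.8%) for the table, and the member share is near that of the table.

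By position, 9 of 90 regions inside a gene were called, 3 of 22 outside but within 1 kb, and 3 of 60 at 1 to 10 kb. The whole table had 6.74% called, and the counts by position were not tested against it. For the 20 measured genes with a RefSeq start, 3 of 27 regions in the 2 kb after a start were called, 2 of 36 upstream, and 0 of 29 between 2 and 40 kb after it. The 300-base windows around starts held 3 regions, at SOX1 and TBX5, with no call. Sites were denser in the called regions (median 23.8 per 100 bases) than over all member regions (14.8) and over the whole table (12.7). Called regions of the whole table were also denser, with a median of 18.6. The lower member calls had a median of 27.5 sites per 100 bases and the higher ones 13.5, beside 20.7 and 17.9 for the calls of the table. At the edge of the 10 kb window, 7 regions at 8 to 10 kb had a median difference of 28.5 points and no call, and 6 regions at 10 to 12 kb had a median of 25.4 points and 1 call.

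Genes related to the SOX and T-box families by sequence or function were measured in the same table. The forkhead genes, another large family of developmental regulators, had 32 of 174 regions called (18.4%, 22 higher and 10 lower). They ran from FOXL2 at 14.8% and 83.2% to a region 9065 bases outside FOXC2 at 76.1% and 18.7%. The other HMG-box genes, relatives of SOX, had 3 of 46 called, among them TCF7 at 20.8% and 72.6% and TOX3 at 38.5% and 8.61%. Partner factors of SOX proteins had 8 of 56, including POU3F3 (24.2% and 79.7%) and a region 6993 bases outside PAX3 (80.3% and 21.3%). Targets of SOX9 and SOX10 had 4 of 36, including ERBB3 (30.5% and 83.2%) and MATN1 (93.7% and 32.8%). SOXF-related endothelial genes had 1 of 33, at EPHB4 (14.6% and 40.6%).

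For the T-box side, cardiac partners and targets had 9 of 60 regions called. A region 3604 bases outside HAND2 was at 9.57% in M07e_WT and 70.2% in M07e_3883. Another, 2356 bases outside GATA6, was at 71.1% and 21.8%. Mesoderm and endoderm genes had 5 of 24, with FOXA2 called in both directions, at 8.57% and 59.6% and at 75.1% and 32.3%. Lymphocyte targets of T-bet and EOMES had 0 of 6. The noncoding neighbours of SOX and T-box genes had 7 of 65, of which 45 regions were also member regions. SOX1-OT, beside SOX1, had a further call at 42.2% and 97.6%. The whole table had 6.74% of its regions called under the same rule. These lists were not tested against it or against the members.

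Among marker genes of the cell type, megakaryocyte genes had 3 of 30 regions called, beside 6.74% of the whole table. These included GP9 (17.3% and 67.8%) and a region 4138 bases outside GATA2 (49.4% and 8.33%). Lymphoid markers had 0 of 4 and epithelial markers 1 of 4, at EPCAM (13.6% and 45.5%). Methylation levels do not report expression, so the markers do not test the identity of the line.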

How the data were processed

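Reduced representation bisulfite sequencing of 3 control and 3 DNMT3B knockout M07e libraries was used as deposited. Each library started from 500 ng of DNA, per the labels' protocols. FastQC, Trimmomatic, Bismark, HISAT2, methylKit and hg38 are named, without versions or roles, per the submitters' processing notes. The sources used here do not name the tool that made the regions. Per the file headers, the authors deposited group means as a percent of methylation, the mean difference in points (a score that can be negative), the number of sites, a Mann-Whitney p-value, a 2-dimensional Kolmogorov-Smirnov p-value and a q-value, whose derivation the sources used here do not give. Levels of single libraries and coverage were not analysed here, so depth and replicate spread are unknown.

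The members and lists were chosen with earlier results of these data known. Regions were joined to RefSeq gene spans (GRCh38.p14, no strand or exons) within 10 kb. Positions are 1-based and run from the deposited start plus 2 to the deposited stop plus 1. In all 2501 regions that lie within a RefSeq start window, the first and the last site fell on a C or G of a CG. In 81.1% of those regions there were more sites than CG dinucleotides, so sites count both strands, and 5 sites can be as few as 3 CG. The deposited difference equalled the difference of the means within 0.01 points in all but 2 member regions, neither called.

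No new test per region was made. Shares have exact (Clopper-Pearson) intervals from scipy 1.17.1, and tables were made with pandas 2.3.3. Each called member region was named, and for other genes the region with the lowest q, except SOX6 and SOX15, where every q was 1 and all regions are described. For each related list the called region with the largest difference was named, and the largest of the other direction where one occurred. Sequences were to come from the genes whose calls lie at or nearest a start. SOX1 does not meet that rule: its call lies 1764 bases after the start, beside 813 for SOX21. It was printed for its measured region next to the start, which was not called. The bases before the TBX4 start lie inside its gene span and were not printed. Alternatives covered both thresholds, Benjamini-Hochberg adjustment of each p-value, the window, the number of sites, means of 0%, merging and overlap with other genes. Counting and joining were tested on simulated data.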

Additional observations from a re-analysis of the deposited data

How the results depend on the processing

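The 15 called regions (8 higher, 7 lower, 11 genes) depended on the thresholds. At q under 0.05 there were 26, 17 of them higher (15.1% of member regions, beside 10.5% of the table). At q under 0.001 there were 5 (3 higher, 2 lower) at 4 genes (2.91%, beside 3.31%). A difference of at least 40 points left 8 (5 higher, 3 lower) at 6 genes (4.65%, beside 3.42%). Benjamini-Hochberg adjustment of the Kolmogorov-Smirnov p over all regions gave 8 (5 higher, 3 lower) at 7 genes (4.65%, beside 4.12%), and of the Mann-Whitney p 19, with 13 higher (11.05%, beside 8.70%). Of the 90 regions overlapping a gene span, 9 were called (5 higher, 4 lower) at 7 genes, a share of 10%, beside 6.74% of the table. Regions of at least 10 sites held 8 (3 higher) at 5 genes, and a window of 50 kb held 22, with 15 higher. No share was computed for these last counts, so they are not compared with the table. Every other alternative run kept these counts within 1.5 times. Leaving out regions at a mean of 0% could only leave the calls as they were, because none of those regions was called. The median difference of 16.7 points was 3.56 without regions at a mean of 0%, and 13.1 to 25.2 under the other alternatives. The SOX7 region, the SOX17 regions of 13 and 10 sites and the TBX3 region kept their call under all 6 threshold and adjustment alternatives. Of the 15, 8 kept it under the Kolmogorov-Smirnov adjustment and 13 under the Mann-Whitney adjustment. The calls lost under the Mann-Whitney adjustment were the SOX21 region and the SOX8 region 4115 bases outside the gene. The Kolmogorov-Smirnov adjustment acted as a stricter cutoff, because q rose with the Kolmogorov-Smirnov p. No paired analysis was possible because the deposited table has 1 mean per group, and leaving out single libraries could not be run for the same reason. Depth is unknown, so no limit from depth can be given.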
